A study of Rattus norvegicus with 72 samples.

Results

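The comparison described here is between dorsal root ganglia taken 18 h after a sciatic nerve lesion labelled proximal and ganglia taken 18 h after sham surgery. It rests on 6 of the 72 arrays of the study, those titled Inj.18.a to c and Sham.18.a to c, which the labels give as 3 proximal and 3 sham arrays of 18 h. All animals were Wistar rats aged 8 to 12 weeks, and the RNA came from the lumbar ganglia L4 and L5 on both sides of the comparison. The labels describe the lesion as a crush of the sciatic nerve, carry the same crush text for the sham arrays, and do not say how the sham surgery was done, how far from the ganglia the nerve was crushed, or whether ganglia of several animals were pooled. They also do not say that the arrays come from separate animals. The p-values reflect the spread of differences between proximal and sham arrays of the same title letter, pooled over hours. That spread may be technical, and the spread between letters does not enter it. The other arrays of the study held ganglia of other hours and of a lesion labelled distal. Those of proximal and sham ganglia at other hours entered the fit to estimate the spread (43 arrays in all), and the hours 8, 24 and 28 h, with 3 proximal and 3 sham arrays each, were used for comparison.

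The sciatic nerve carries axons of sensory neurons that have their somata in the dorsal root ganglia, next to satellite glia, Schwann cells, macrophages, vessels and connective tissue. A crush cuts the axons at a distance from the cell bodies. Signals that travel back along the axon, among them kinases and transcription factors carried by dynein and importins, reach the nucleus, and the neuron then switches from the gene expression of a mature sensory cell to that of a growing one. Transcription factors such as Atf3, Jun and Sox11, gp130 cytokines and neuropeptides such as galanin and VIP are known parts of this switch. The series title concerns the network between retrograde signals and transcription, and the 18 h arrays address which genes of the ganglion differ from sham at that hour.

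The tissue carried the defining markers of sensory neurons. Their summed linear level over 17 tested markers ran from 115500 to 131000 in proximal arrays and from 117800 to 129300 in sham arrays, and the neuronal ubiquitin hydrolase gene Uchl1 had log2 intensities of 13.33, 13.30 and 13.13 in proximal arrays and 13.45, 13.50 and 13.31 in sham arrays. Before any result, the arrays of letter c stood apart. The interquartile range of all log2 values was 3.67, 3.75 and 3.03 in proximal arrays a, b and c, and 3.60, 3.65 and 3.09 in sham arrays a, b and c. Arrays a and b of both groups correlated at 0.986 or more across probe sets, whereas no array of letter c correlated above 0.963 with an array of letter a or b. Proximal and sham arrays of the same letter deviated together from their group means, with correlations of 0.618, 0.714 and 0.799 for letters a, b and c. Because letter c stood apart in both groups, such correlations can arise from c alone. They cannot tell whether proximal a belongs with sham a or with sham b. Differences were taken within letters because letter c differed in both groups, and the results that rest on 1 letter are named as such. Values are log2 intensities throughout, so a difference of 1 is 2-fold.

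Many more genes differed by a small amount than by a large one. Of 12276 genes tested, 845 passed an adjusted p of 0.05 in limma (6.88%), of which 520 were higher after the proximal lesion (4.24%) and 325 lower (2.65%). The median difference was 0.59 among the higher genes, -0.49 among the lower ones and 0.01 over all genes tested. At least 2-fold differences were found for 71 higher genes and 15 lower genes, and 13 genes were at least 4-fold higher against 0 that were at least 4-fold lower. In 832 of the 845 genes all 3 letter pairs had the same direction, as had 43.6% of all genes tested. The 3 proximal arrays lay above the 3 sham arrays in 252 of the higher genes and below them in 171 of the lower genes, and 10.2% of all genes tested had groups that did not overlap. The count depends on the pairing by letter and on each pair. Without the replicate block 125 genes were called (113 higher and 12 lower). With letter a left out 234 were called (182 higher and 52 lower), with letter b left out 367 (213 and 154) and with letter c left out 636 (446 and 190). Of the 845 calls, 129 of the higher and 33 of the lower were also made without each of the 3 pairs in turn, and these are called calls that held below. A call that held may still be lost without the replicate block. Such calls included those of Fos, Jun, Myc, Smad1, Bdnf, Casr, Kif3b, Kcna4, Isl2, Inhbb, Dusp5, Cldn5, Gabra5 and Tlcd5.

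The letter pairs resembled each other to different degrees. Across all genes tested, the difference within pair a and the difference within pair b correlated at 0.726, pairs a and c at 0.341 and pairs b and c at 0.291. These correlations run over genes, which are not independent replicates, and are given as a description. The largest rises were smaller in pair c: Atf3 was higher by 4.53, 4.71 and 2.42 in pairs a, b and c, and the measured values of Il6, below the filter level in sham arrays, differed by 4.76, 4.64 and 2.20. RT1-T24-4, an MHC class I gene, was higher by 3.59 and 3.78 in pairs a and b and by 0.21 in pair c. By contrast Flrt3 was higher by 2.06, 2.54 and 2.49.

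**Figure D1:**
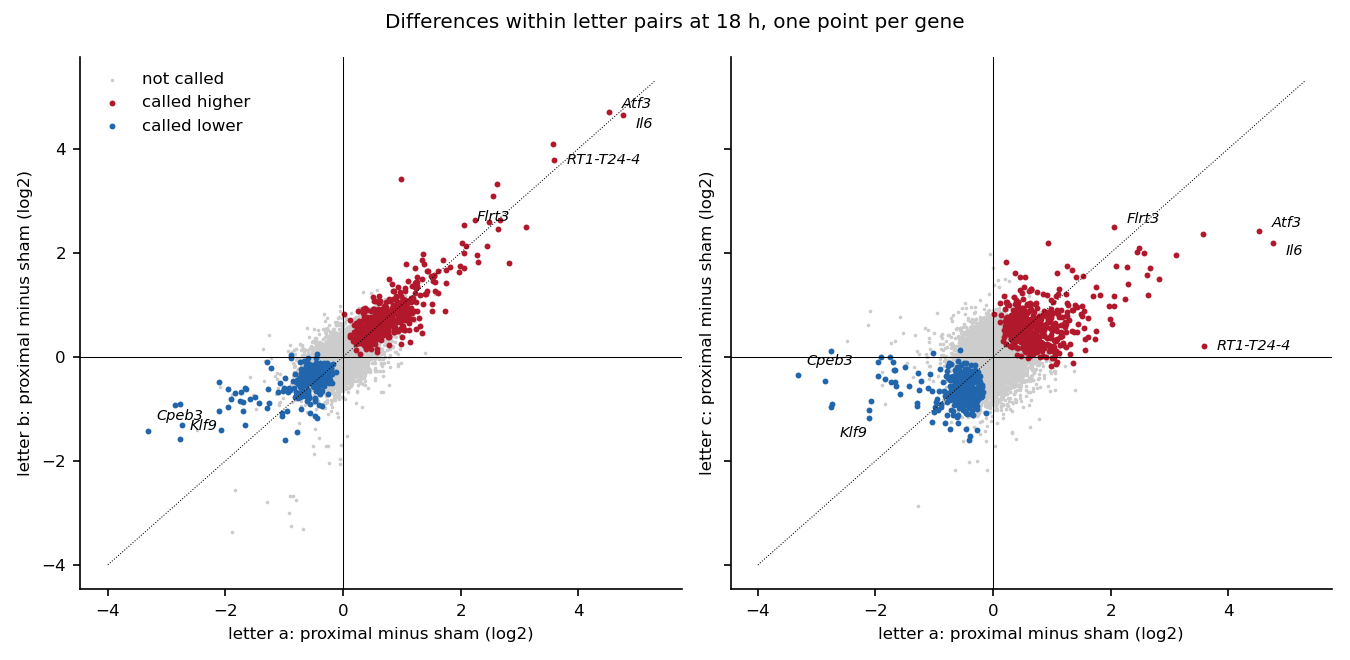
Difference between the proximal and the sham array of a letter (log2), with letter a on the horizontal axis and letter b (left) or letter c (right) on the vertical axis. Each point is a gene, red where called higher, blue where called lower and grey where not called, and the dotted line marks equal differences. The points of letters a and b run along the line (r = 0.726), those of letters a and c spread more widely (r = 0.341), and RT1-T24-4 lies near 0 in letter c.

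The genes with the largest rises were a stress-induced transcription factor, secreted cytokines and lectins, and a neuropeptide. Atf3, a bZIP transcription factor that marks axotomised neurons, had 12.47, 12.56 and 11.88 in proximal arrays a, b and c, against 7.94, 7.85 and 9.46 in sham arrays. The group means were 12.30 ± 0.37 and 8.42 ± 0.90 (SD, n = 3 each), a 14.8-fold rise (log2 difference 3.89, SE 0.52, adjusted p = 8.78e-05). The gp130 cytokine gene Il6 had 8.83, 8.74 and 7.31 in proximal arrays, against 4.07, 4.10 and 5.11 in sham arrays. Its sham values lay below the level at which genes were filtered (5.46), so its rise is given as at least 7.11-fold (adjusted p = 4.67e-06). In both genes the sham array of letter c was the highest of the sham arrays and the proximal array of letter c the lowest of the proximal arrays, and the groups did not overlap.

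Secreted lectins of the Reg family also rose. Reg3b, a secreted C-type lectin of injured and regenerating tissue, had 11.36, 11.37 and 10.47 in proximal arrays and 7.79, 7.28 and 8.10 in sham arrays, a 10.2-fold rise (log2 difference 3.35, SE 0.33, adjusted p = 2.86e-06). Reg3a, a close relative, had 9.56, 9.53 and 8.59 in proximal arrays and 7.0, 6.44 and 6.60 in sham arrays, a 5.84-fold rise. The 2 genes are paralogs, and cross-hybridisation between their probes was not tested. Tnfaip6, which encodes a hyaluronan-binding protein of inflamed tissue, had 8.94, 8.76 and 7.24 in proximal arrays and 5.82, 6.26 and 5.27 in sham arrays (5.77-fold). A dimmer Tnfaip6 probe set, itself below the filter level, differed by 0.40. The epithelial cytokine gene Tslp rose at least 4.88-fold, with 8.22, 8.50 and 6.53 in proximal arrays and 5.55, 5.86 and 4.83 in sham arrays.

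The neuropeptide gene Vip had 7.69, 8.19 and 6.94 in proximal arrays and 5.07, 4.88 and 5.36 in sham arrays, a rise of at least 4.41-fold. Sox11, a SoxC transcription factor of developing and regenerating neurons, had 8.11, 8.06 and 7.52 in proximal arrays and 5.63, 5.47 and 5.43 in sham arrays. Its 5.23-fold rise had an SE of 0.21 on a log2 difference of 2.39 (adjusted p = 8.65e-07). The Sox11 sham values lay close to the filter level of 5.46, that of letter c below it, so the size rests on values near that level. Flrt3, a leucine-rich repeat membrane protein of neurite growth, had 9.91, 9.75 and 11.11 in proximal arrays and 7.85, 7.21 and 8.62 in sham arrays (5.14-fold), so the c arrays were the highest of both groups. Gadd45a, a stress and growth arrest gene, had 12.35, 12.21 and 12.19 in proximal arrays and 9.89, 10.08 and 10.19 in sham arrays (4.59-fold). Groups did not overlap in 10.2% of all genes tested. Among the 520 higher genes 252 had groups that did not overlap and 129 held. Of all the 15 largest rises, chosen by size from these same values, 15 had groups that did not overlap and 14 held. The exception was RT1-T24-4, with 9.34, 9.15 and 8.03 in proximal arrays and 5.74, 5.37 and 7.82 in sham arrays, whose adjusted p of 0.0124 became 0.165 without a pair (a or b). The rest of the 15 were Smagp (2.09), a small transmembrane adhesion protein gene, Nabp1 (1.99), for a protein that binds single-stranded DNA, and LOC100912188 (2.04) and C9h6orf141 (2.0), which have no role given here.

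**Figure D2:**
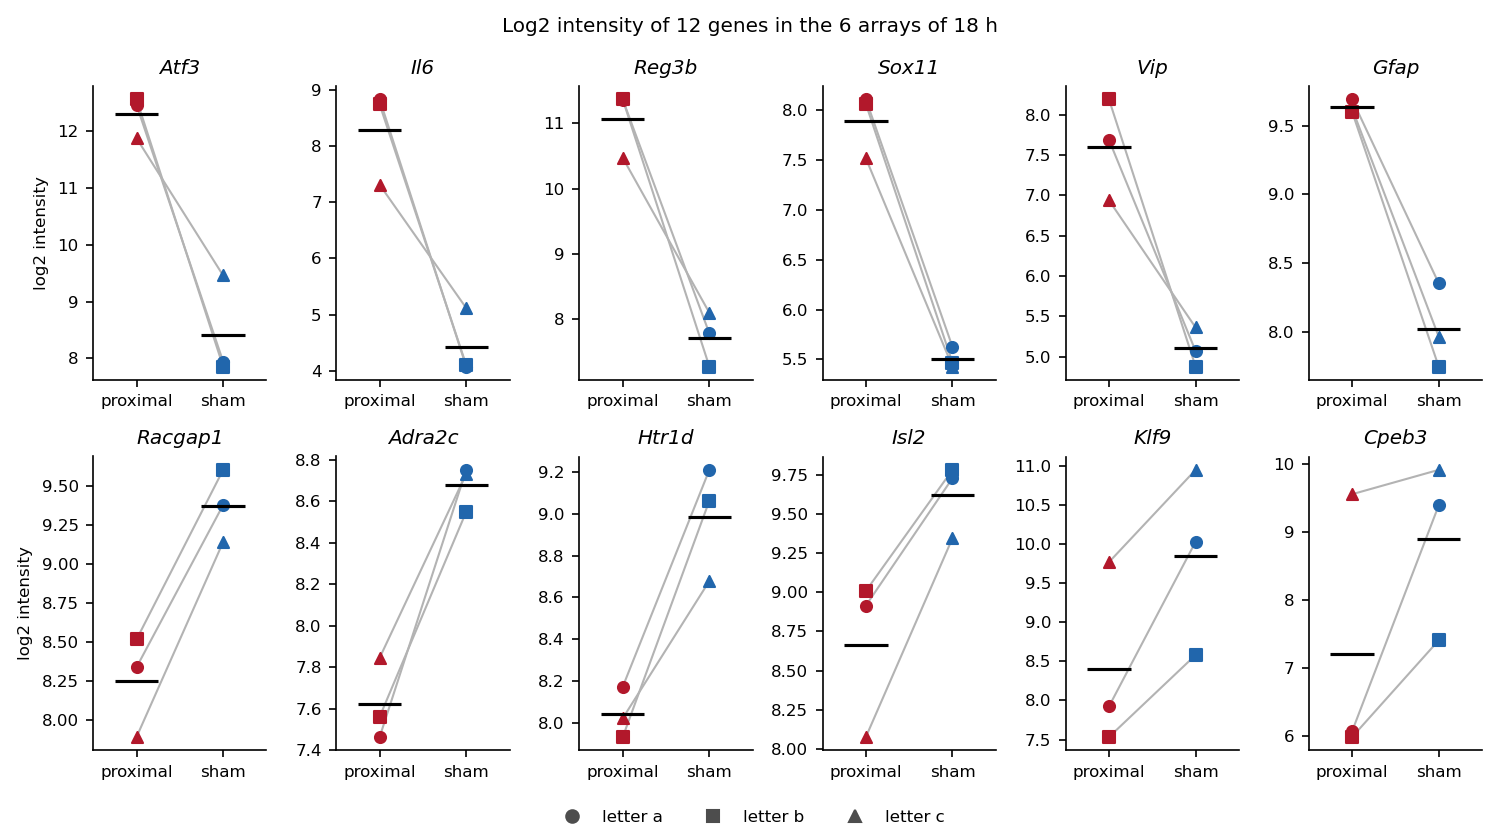
Log2 intensity (vertical axes, each panel with its own range) of 12 genes in the 3 proximal arrays (red, left) and the 3 sham arrays (blue, right) of 18 h. Marker shape gives the letter, grey lines join arrays of a letter and black bars are group means. Atf3, Il6, Reg3b, Sox11, Vip and Gfap lie higher in every proximal array, Racgap1, Adra2c, Htr1d and Isl2 lie lower in every proximal array, and in Klf9 and Cpeb3 the letters differ by more than the groups do.

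Promoter sequence was read for the 15 largest rises, of which 14 had an entry, as the 250 bases before the RefSeq gene start (build GRCr8). The windows were searched on both strands for TGACGTCA, the cAMP response element that CREB, CREM and ATF proteins can bind, for TGANTCA, the AP-1 element of Fos and Jun proteins, and for TTCNNNGAA, the element of STAT proteins. Of the 14 windows 1 held each motif: Il6 the first, Tnfaip6 the AP-1 element and Reg3b the STAT element. These 3 windows are shown with the motif in capitals. Whether factors of these families act on the 3 genes was not tested.

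Il6 (chr4:5894576-5894825, minus strand): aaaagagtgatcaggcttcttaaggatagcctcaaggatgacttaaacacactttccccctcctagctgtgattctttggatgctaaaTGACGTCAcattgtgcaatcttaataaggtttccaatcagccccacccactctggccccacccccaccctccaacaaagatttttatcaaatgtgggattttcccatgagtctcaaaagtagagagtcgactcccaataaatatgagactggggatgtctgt
Reg3b (chr4:112419526-112419775, plus strand): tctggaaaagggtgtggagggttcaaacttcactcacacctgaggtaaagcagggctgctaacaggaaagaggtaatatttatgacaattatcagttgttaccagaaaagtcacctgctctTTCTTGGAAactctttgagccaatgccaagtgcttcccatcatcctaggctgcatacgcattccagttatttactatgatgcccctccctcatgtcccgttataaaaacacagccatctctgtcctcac
Tnfaip6 (chr3:56911148-56911397, plus strand): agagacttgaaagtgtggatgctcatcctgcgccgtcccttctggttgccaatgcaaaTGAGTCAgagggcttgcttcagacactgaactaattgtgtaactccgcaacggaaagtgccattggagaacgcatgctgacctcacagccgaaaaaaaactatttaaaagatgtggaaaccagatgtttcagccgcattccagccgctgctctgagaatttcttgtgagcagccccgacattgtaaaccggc

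Between the end of the motif and the gene start lie 154 bases in Il6, 120 in Reg3b and 185 in Tnfaip6. The cAMP response element stood in 4.65% of 430 promoters of called higher genes, 2.99% of 268 promoters of called lower genes, 2.9% of 10155 promoters of genes tested and 1.7% of all 27457 promoters. For the AP-1 element these shares were 6.51%, 5.22%, 4.58% and 6.36%, and for the STAT element 6.51%, 4.1%, 5.85% and 7.52%. A match is a description of these letters and does not show that a factor binds there.

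Injury-associated transcription factors were mostly higher among the called. Of 34 tested members of the list, 18 were higher (52.9%, against 4.24% of all genes tested) and 3 lower (8.82%, against 2.65%), with a median difference of 0.44. This list and the later ones were chosen with earlier results of these data known. Their shares are therefore descriptions and not an independent result. Without the replicate block 8 were higher and 0 lower, and Fos, Jun, Myc and Smad1 were not among these 8. The calls of 10 higher members held, those of Atf3, Sox11, Fos, Crem, Arid5a, Csrnp1, Nfil3, Myc, Jun and Smad1. Fos, the immediate-early partner of Jun in AP-1, had 9.42, 9.12 and 7.66 in proximal arrays and 7.13, 7.30 and 6.25 in sham arrays (3.58-fold, adjusted p = 0.000216), and a dimmer Fos probe set did not follow (-0.09). Crem, a cAMP-responsive factor, had 11.06, 10.85 and 9.95 in proximal arrays and 9.30, 9.19 and 8.60 in sham arrays (3.01-fold, adjusted p = 8.69e-06). Of its other probe sets, the 3 above the filter level differed by 1.05, 1.59 and 2.16. Jun had 11.79, 11.75 and 10.91 in proximal arrays and 10.57, 10.52 and 10.33 in sham arrays (2.02-fold), and its other probe sets differed by 1.05 and 1.14. In these 3 genes the c array was the lowest of each group, and the groups did not overlap.

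Arid5a, for a protein that stabilises inflammatory mRNAs such as that of Il6, differed by 1.41 (SE 0.19), Csrnp1, a nuclear protein induced by injury and axin, by 1.22, Nfil3, a bZIP repressor, by 1.12, and the proto-oncogene Myc by 1.09. Smad1, the transducer of bone morphogenetic protein signals, had 11.06, 11.09 and 10.49 in proximal arrays and 10.08, 10.04 and 9.64 in sham arrays (1.94-fold). The other 8 higher calls did not hold. Stat3 (0.47, adjusted p = 0.00223) reached 0.0524 without letter a, and a second Stat3 probe set differed by -0.07. Klf6 (0.97) reached 0.0752 without letter a, and its other probe sets differed by 0.24 and 0.67. Cebpd (0.86), Junb (0.66) and Maff (0.75) were lost without letter a or b, with adjusted p up to 0.0954, 0.336 and 0.363. Egr1 (0.80), Ier3 (0.44) and Hif1a (0.44) were lost without any 1 of the letters, with adjusted p up to 0.223, 0.179 and 0.198. The 3 lower members were Klf9 (-1.45), Klf7 (-1.41) and Smad9 (-0.60). They were lost without letter a, and Klf7 also without letter b and Smad9 without letter c, with adjusted p up to 0.155, 0.334 and 0.0889.

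In the gp130 and JAK-STAT pathway a ligand and feedback inhibitors were higher and the shared receptor chain was not called. Of 21 tested members 6 were higher (28.6%) and 0 lower, with a median of 0.12, and without the replicate block 4 were higher. The calls that held were those of Il6, Socs3 and Ptpn2. Socs3, the suppressor that gp130 signals induce, had 7.69, 7.21 and 7.52 in proximal arrays and 6.18, 6.33 and 6.56 in sham arrays (2.17-fold, adjusted p = 0.00101). Ptpn2, a phosphatase that acts on JAK and STAT proteins, had 9.40, 9.53 and 8.64 in proximal arrays and 8.50, 8.36 and 8.06 in sham arrays (log2 difference 0.88, adjusted p = 0.000567). The groups did not overlap in either gene. The kinase gene Jak2 (0.75) was lost without letter a or c and the feedback inhibitor gene Cish (0.68) without letter a or b, with adjusted p up to 0.131 and 0.31, and Stat3 was described above. A second Cish probe set differed by 0.26. The receptor genes Il6st, for gp130 (-0.12), Il6r (0.24), Lifr (-0.11) and Cntfr (-0.39) and the kinase gene Jak1 (0.01) were not called, and Lif lay below the filter level.

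A few neuropeptide genes were higher, among them those of VIP, PACAP and galanin. Of 19 tested members 5 were higher (26.3%) and 1 lower (5.26%), with a median of 0.05, and 4 higher and 0 lower without the replicate block. Besides Vip, Adcyap1, for the peptide PACAP, had 12.10, 12.11 and 11.74 in proximal arrays and 10.40, 10.25 and 10.56 in sham arrays (2.99-fold, adjusted p = 4.69e-06), and a second probe set differed by 2.20. Gal, for galanin, had 9.77, 9.81 and 9.75 in proximal arrays and 8.96, 8.93 and 9.03 in sham arrays. Its rise was only 1.75-fold but its groups were tight, with means of 9.78 ± 0.03 and 8.97 ± 0.05 (SD, n = 3 each, adjusted p = 2.03e-05). Vgf, a secreted peptide precursor induced by neurotrophins, had 11.18, 11.21 and 10.58 in proximal arrays and 9.73, 9.56 and 9.95 in sham arrays (2.36-fold). Calcb, for the second calcitonin gene-related peptide (0.33), and the enkephalin gene Penk, which was lower (-0.41), did not hold, with adjusted p up to 0.171 and 0.242 without a pair (any letter for Calcb, a or b for Penk). Npy, for neuropeptide Y, had 7.90, 8.36 and 7.68 in proximal arrays and 7.24, 7.52 and 7.67 in sham arrays and was not called (adjusted p = 0.0655). The nociceptor peptide genes Tac1 (0.05) and Calca (0.05) were not called either.

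Among growth-associated and cytoskeletal genes, a few microtubule and guidance genes were higher and the growth cone genes most used as markers were not called. Of 36 tested members 6 were higher (16.7%) and 1 lower (2.78%), with a median of 0.06, and 5 higher and 0 lower without the replicate block. Calls that held were those of Flrt3, Stmn4, Tubb6, Sema6a and Csrp3. Stmn4, a stathmin that destabilises microtubules, had 10.05, 9.92 and 10.14 in proximal arrays and 8.64, 8.71 and 8.61 in sham arrays (2.61-fold, adjusted p = 2.61e-06). Sema6a, a transmembrane semaphorin, differed by 1.34 (SE 0.19), with 1.57 and 1.20 in its other probe sets above the filter level. The tubulin gene Tubb6 differed by 0.97 (SE 0.12). Csrp3 encodes a LIM protein of muscle that injured sensory neurons also make, and differed by 1.22 (SE 0.22). Dclk1, a microtubule-associated kinase (0.61), and Crip2, a LIM protein gene that was lower (-0.29), were lost without any 1 letter, with adjusted p up to 0.0994 and 0.171. Gap43 had 12.28, 12.30 and 12.32 in proximal arrays and 12.37, 12.26 and 12.21 in sham arrays (0.02, adjusted p = 0.933). Sprr1a differed by 0.26 (adjusted p = 0.312) and Vim, for vimentin, by 0.05 (adjusted p = 0.725).

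Secreted inflammatory and matrix-remodelling factors had 9 of 22 tested members higher (40.9%) and 1 lower (4.55%), with a median of 0.43, and 5 higher and 0 lower without the replicate block. The summed linear level of the list was 1.52, 1.42 and 1.501 times that of the sham array in the proximal array of letters a, b and c. Calls that held were those of Reg3b, Reg3a, Tnfaip6, Tslp, Bdnf and Mmp16. Bdnf, for a neurotrophin made by sensory neurons, had 10.01, 9.99 and 9.16 in proximal arrays and 8.53, 8.44 and 8.33 in sham arrays (2.44-fold), and a second probe set differed by 0.44. Mmp16, a membrane-bound matrix protease, differed by 1.11 (SE 0.15). Inhbb, for an activin and inhibin subunit, was the lower member (-0.89, SE 0.17, adjusted p = 0.00257) and held. Timp1, for a protease inhibitor (0.76), was lost without letter a (adjusted p = 0.06), and the heme oxygenase gene Hmox1 (0.58) and the protease gene Plau (0.61) without any 1 letter (up to 0.225 and 0.404).

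Chemokines and NF-kappaB targets had 5 of 20 tested members higher (25%) and 0 lower, with a median of 0.15, and 2 higher without the replicate block. Ccl2, for a chemokine that draws monocytes and is also made by injured neurons, held. It had 11.24, 11.07 and 11.06 in proximal arrays and 9.99, 9.63 and 9.32 in sham arrays (2.79-fold, adjusted p = 0.00284). The related chemokine gene Ccl7 (1.20) and the adhesion genes Vcam1 (0.99) and Icam1 (0.62) were lost without letter a or b, with adjusted p up to 0.102, 0.324 and 0.408, and Bcl3, for an NF-kappaB cofactor (0.43), without any 1 letter (up to 0.183). Other Bcl3 probe sets above the filter level differed by 0.19 and 1.08. In the list of stress, p53 and amino acid response genes 7 of 30 were higher (23.3%) and 1 lower (3.33%), with a median of 0.19, and 3 higher and 0 lower without the replicate block. Gadd45a and Gadd45g held, the second with 10.40, 10.18 and 9.41 in proximal arrays and 8.35, 8.47 and 8.24 in sham arrays (3.12-fold). Cdkn1a, for the cell cycle inhibitor p21 (0.86), and Ppp1r15a, for a phosphatase subunit of the integrated stress response (0.58), reached an adjusted p of 0.118 each without a pair (a or b). Atf5 (0.44), Btg1 (0.48) and the p53 regulator Mdm2 (0.48) were lost without any 1 letter, with adjusted p up to 0.201, 0.0899 and 0.233. Ddit4, an inhibitor of mTOR signalling and the lower member (-0.50), reached 0.452 without a pair (b or c).

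**Figure D3:**
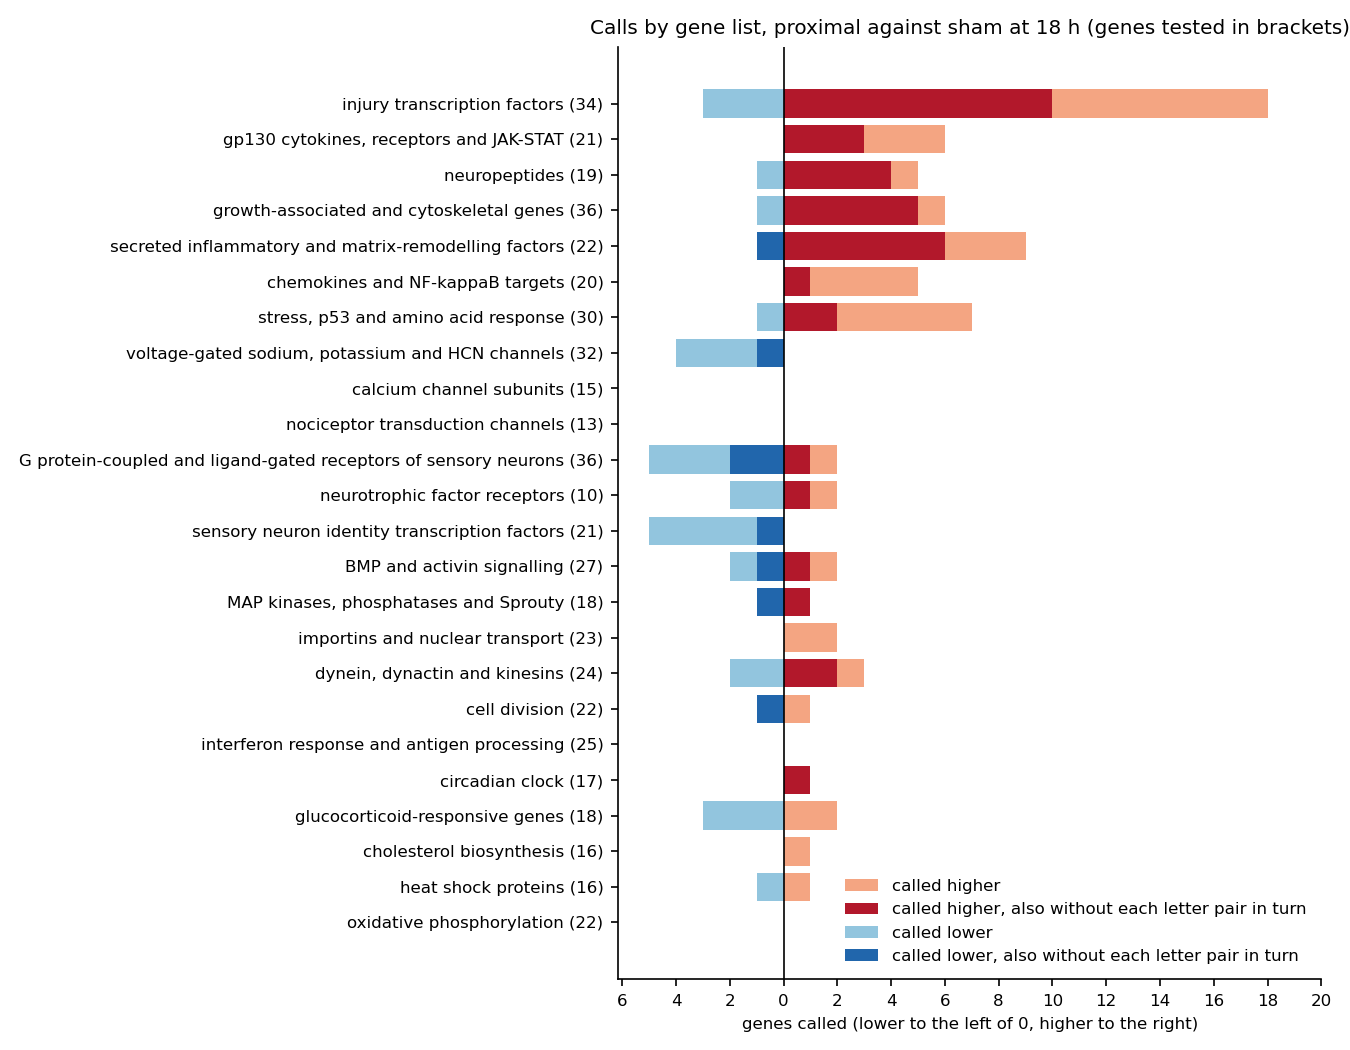
Number of genes called higher (right of 0) and lower (left of 0) after the proximal lesion in 24 gene lists, with the number tested in brackets. Dark parts are calls also made without each letter pair in turn. Injury transcription factors have 18 higher and 3 lower of 34, with 10 and 0 in the dark part, and calcium channel subunits, nociceptor transduction channels, interferon genes and oxidative phosphorylation have 0.

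Ion channel and receptor genes of mature sensory neurons were called lower more often than higher, and few of these calls held. Voltage-gated sodium, potassium and HCN channels had 4 of 32 lower (12.5%, against 2.65% of all genes tested) and 0 higher, with a median of -0.08, and 0 in either direction without the replicate block. Kcna4, a fast-inactivating potassium channel gene, held, with 7.88, 8.18 and 7.16 in proximal arrays and 8.67, 8.62 and 8.02 in sham arrays (-0.70, adjusted p = 0.00254). Its groups overlapped, while the proximal array of each letter was the lower one. Kcns1, a modulatory potassium channel subunit (-0.56), reached 0.0946 without letter a, Kcna1 (-1.08) 0.193 without a or b, and Kcnc1 (-0.50) 0.273 without any 1 letter. The c arrays of Kcna1 lay 5.12 above its a and b arrays on average over both groups, more than its groups differed. The sodium channel genes of nociceptors Scn10a (-0.14, adjusted p = 0.357) and Scn9a (0.31, adjusted p = 0.319) were not called. Calcium channel subunits had 0 of 15 called and nociceptor transduction channels 0 of 13. Among the latter list, Trpv1, the heat and capsaicin channel, had 10.26, 10.45 and 9.97 in proximal arrays and 10.62, 10.55 and 10.35 in sham arrays (-0.28, adjusted p = 0.084).

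Of 36 tested G protein-coupled and ligand-gated receptors 5 were lower (13.9%) and 2 higher (5.56%), with a median of -0.14, and 2 lower and 0 higher without the replicate block. Adra2c, an adrenergic receptor gene, had 7.46, 7.56 and 7.84 in proximal arrays and 8.75, 8.55 and 8.73 in sham arrays (-1.06, SE 0.17, adjusted p = 0.000616). Htr1d, for a serotonin receptor targeted by triptans, had 8.17, 7.93 and 8.02 in proximal arrays and 9.21, 9.06 and 8.68 in sham arrays (-0.94, SE 0.12, adjusted p = 5.2e-05). Both held, and in both every proximal array lay below every sham array. Gabra5, a GABA-A receptor subunit and the higher member that held, had 8.91, 8.86 and 7.41 in proximal arrays and 7.93, 7.80 and 6.74 in sham arrays (0.90, adjusted p = 5e-05). Its groups overlapped because the c arrays were low in both. Npy1r (-0.47), the nicotinic receptor gene Chrna3 (-0.65), the glutamate receptor gene Grm4 (-0.63) and the bradykinin receptor gene Bdkrb2 (0.52) did not hold, with adjusted p up to 0.156 and 0.208 (any letter), 0.206 (a or c) and 0.418 (a or b).

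A receptor gene outside the list, Casr, had letters that differed by more than the groups. Casr, for the calcium-sensing receptor, had 5.93, 5.72 and 7.72 in proximal arrays and 8.69, 6.63 and 8.68 in sham arrays (-1.55, adjusted p = 0.000289). It was lower in each pair and held without each pair, but the groups overlapped, and the call was lost without the replicate block and with only the 6 arrays of 18 h and the block. The list of neurotrophic factor receptors, which also holds cytokine receptors, had 2 of 10 higher and 2 lower (20% each), and 1 higher and 0 lower without the replicate block. Il1r1, the signalling receptor of interleukin-1, held, with 8.92, 9.15 and 8.15 in proximal arrays and 7.69, 7.71 and 7.38 in sham arrays (2.22-fold). The TNF receptor gene Tnfrsf1a (0.55) and the GDNF family receptor genes Gfra2 (-0.42) and Gfra3 (-0.39) did not hold, with adjusted p up to 0.176 (a or b), 0.118 (a) and 0.249 (a or c).

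Transcription factors of sensory neuron identity were the list with the lowest median apart from the skeletal muscle markers. Of 21 tested members 5 were lower (23.8%) and 0 higher, with a median of -0.43 against 0.01 over all genes tested, and 0 were called without the replicate block. Their summed linear level in the proximal array was 0.84, 0.92 and 0.78 times that of the sham array of letters a, b and c. Isl2, a LIM homeodomain factor, had 8.92, 9.01 and 8.08 in proximal arrays and 9.73, 9.78 and 9.35 in sham arrays (-0.95, SE 0.15, adjusted p = 0.00044), and held. A second Isl2 probe set differed by -0.85. Drgx, a paired homeodomain factor of dorsal root ganglion neurons, was lower by 0.73 in the fit, with 9.12, 8.89 and 8.28 in proximal arrays and 9.50, 9.60 and 9.37 in sham arrays, and reached an adjusted p of 0.0669 without letter c. Isl1 (-0.59) and Klf7 (-1.41) were lost without letter a or b and Hoxd1 (-0.54) without any 1 letter, with adjusted p up to 0.294, 0.334 and 0.278. The c arrays of Klf7 lay 2.57 above its a and b arrays on average over both groups. Klf7 had 2 other probe sets above the filter level, which differed by -0.19 and 0.21. Pou4f1, for the factor Brn3a, was not called (-0.55, adjusted p = 0.0733). In bulk ganglia, fewer cells of a type and less RNA per cell cannot be told apart.

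Signalling and transport lists had at most 3 calls in a direction, against 4.24% higher and 2.65% lower over all genes tested. BMP and activin signalling had 2 of 27 higher (Smad1 and Fst) and 2 lower (Inhbb and Smad9), 7.41% each way. Without the replicate block 1 was higher, Fst, and 0 were lower. Fst, for the activin antagonist follistatin (0.63), was lost without letter a (adjusted p = 0.211). MAP kinases, phosphatases and Sprouty genes had 1 of 18 higher and 1 lower. The call of the higher one was also made without the block. The higher one was Rasd1, a Ras-related GTPase gene induced by glucocorticoids, with 9.31, 9.03 and 8.62 in proximal arrays and 7.29, 6.83 and 7.98 in sham arrays (3.07-fold, adjusted p = 0.00025), and it held. The lower one was Dusp5, a nuclear ERK phosphatase (-0.65, SE 0.11, adjusted p = 0.00114), which held with 7.46, 7.62 and 7.16 in proximal arrays and 8.18, 8.30 and 7.72 in sham arrays. Of 23 tested genes of nuclear transport 2 were higher, Ranbp2 (0.78) and Tnpo1 (0.60), and neither held (adjusted p up to 0.118 and 0.0833 without a or b) or was called without the block. Further probe sets of Tnpo1 differed by 0.12 and -0.02. Kpnb1, for importin beta, had 9.54, 9.55 and 8.62 in proximal arrays and 9.18, 9.48 and 8.69 in sham arrays (0.12, adjusted p = 0.73). Dynein, dynactin and kinesin genes had 3 of 24 higher (12.5%) and 2 lower (8.33%). Without the replicate block 1 of them was called, upwards. The kinesin genes Kif22 (1.05, SE 0.15) and Kif3b (0.44, SE 0.08) held. Kif3b was lost without the block and with only the 6 arrays of 18 h and the block, and a dimmer Kif3b probe set differed by 0.08. The dynein heavy chain gene Dync1h1 (0.49), the dynactin gene Dctn1 (-0.33) and Dync1li1 (-0.82) did not, with adjusted p up to 0.266 (any letter), 0.393 (a or c) and 0.284 (a or b). In the probe set that stood for Dync1li1 the c arrays lay 3.37 above a and b on average over both groups. The other Dync1li1 probe set differed by -0.01.

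The remaining lists had 0 to 3 calls in a direction, against 4.24% higher and 2.65% lower over all genes tested. Of 22 tested cell division genes 1 was higher, Pcna (0.39, adjusted p up to 0.162 without a pair), and 1 lower, Racgap1. Racgap1, a GTPase-activating protein of cytokinesis that neurons also express, had 8.34, 8.52 and 7.89 in proximal arrays and 9.38, 9.60 and 9.14 in sham arrays (-1.13, SE 0.16, adjusted p = 0.000191). It was the largest fall with groups that did not overlap that held, and a second probe set differed by -0.98. Of 17 circadian clock genes 1 was higher, Nfil3. Glucocorticoid-responsive genes had 2 of 18 higher (11.1%, Cebpd and Cdkn1a) and 3 lower (16.7%, Klf9, Ddit4 and the kinase gene Sgk1, at -0.56 and 0.286 without a or c), and 0 of these calls held. Without the replicate block 1 of them was higher and 0 lower. Cholesterol biosynthesis had 1 of 16 higher, Hsd17b7 (0.49, adjusted p up to 0.106), and heat shock proteins 1 of 16 higher, Hspb8 (0.31, up to 0.196), and 1 lower, Hspb6 (-0.39, up to 0.254), and these also did not hold and were not called without the block. Interferon response and antigen processing had 0 of 25 called and oxidative phosphorylation 0 of 22.

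The largest falls by size, chosen in the same way, were smaller than the largest rises (-1.70 to -0.99, against 1.99 to 3.89). Their groups overlapped more often and fewer of their calls held. Among all 325 lower genes 171 had groups that did not overlap and 33 held. Of the 15 largest falls, 11 had groups that overlapped, 12 were lost without letter a and 3 held, those of Casr, Racgap1 and Adra2c. In 11 of them both c arrays lay above proximal a and b and sham b, and in 12 sham a lay above sham b. Cpeb3, an RNA-binding regulator of translation, had 6.07, 5.98 and 9.55 in proximal arrays and 9.39, 7.40 and 9.91 in sham arrays (-1.70, adjusted p = 0.00603, and 0.167 without letter a). Klf9, a zinc finger factor responsive to glucocorticoids, had 7.92, 7.53 and 9.77 in proximal arrays and 10.03, 8.58 and 10.95 in sham arrays, and 2 other Klf9 probe sets differed by -0.35 and 0.18. Cadm1 (-1.66), Rflnb (-1.42), Nfia (-1.20) and Ythdf2 (-1.03) were likewise lost without letter a (adjusted p 0.125, 0.307, 0.139 and 0.061). Other probe sets above the filter level differed by -0.49 for Cadm1, by -1.04 for Rflnb, by -0.50 and 0.02 for Nfia and, in the opposite direction, by 0.37 for Ythdf2. The calls of Phactr1 (-1.44) and Fhip2a (-1.0) were lost without letter a or b (up to 0.203 and 0.321). The oxidoreductase gene Nqo2 (-1.19) and the MHC class II gene RT1-Bb (-1.12), whose groups did not overlap, were lost without any 1 letter (up to 0.259 and 0.232), and a second RT1-Bb probe set differed by 0.33. Over all genes tested, 300 (2.44%) were at least 2-fold higher in the c arrays than in a and b of both groups on average, as were 34 of the 325 lower genes (10.5%) and 1 of the 520 higher genes (0.192%).

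Marker lists of the cell types of the ganglion had few calls, where 4.24% of all genes tested were higher and 2.65% lower. Satellite glia markers had 1 of 9 higher, Gfap, for the filament protein of reactive glia, with 9.69, 9.60 and 9.63 in proximal arrays and 8.35, 7.75 and 7.96 in sham arrays (3.07-fold, adjusted p = 8.01e-06). Gfap held and its groups did not overlap, while the summed level of the 9 markers ran from 38800 to 43880 in proximal arrays and from 38970 to 41930 in sham arrays. Sensory neuron markers had 1 of 17 lower, Isl1, with a list median of -0.01. Endothelial markers had 1 of 13 lower, Cldn5, a tight junction gene, with 9.77, 9.68 and 9.36 in proximal arrays and 10.25, 10.26 and 10.16 in sham arrays (-0.62, SE 0.10, adjusted p = 0.000407), which held. Their summed level ran from 4158 to 5477 in proximal arrays and from 4587 to 5871 in sham arrays. Macrophage markers had 1 of 20 higher, Mrc1 (0.61, adjusted p up to 0.294 without a or b), with a median of 0.19 and summed levels from 9294 to 11250 in proximal arrays and from 8224 to 9862 in sham arrays. Fibroblast markers had 1 of 16 higher, Postn (0.69, up to 0.185 without a or b). Their part in the results on cytokines and matrix genes was not tested.

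No marker was called for myelinating Schwann cells (0 of 10), neutrophils (0 of 2), lymphocytes (0 of 7), erythrocytes (0 of 4), pericytes and smooth muscle (0 of 8), adipocytes (0 of 1) or spinal cord (0 of 3). At an unadjusted p under 0.05, 2764 of all 12276 genes passed in the same fit. Skeletal muscle markers also had 0 of 14 called, yet their median was -1.22. Ckm, for muscle creatine kinase, had 6.42, 7.20 and 6.39 in proximal arrays and 7.30, 10.44 and 6.23 in sham arrays. The summed level of the muscle markers ran from 6092 to 8004 in proximal arrays and from 5589 to 20260 in sham arrays, and the sham array of letter b held the highest value. Muscle marker levels thus differed between the sham arrays, and their part in the lower genes was not tested.

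Few of the calls at 18 h were shared with 8 h. At 8 h 1036 genes were called (8.44%), 915 higher (7.45%) and 121 lower (0.986%). Of the 520 genes higher at 18 h, 38 were also higher at 8 h (7.31% of the 18 h list and 4.15% of the 8 h list), and 2 of the 325 lower genes were also lower at 8 h (0.615% and 1.65%). These shares of the 18 h lists compare with 7.45% higher and 0.986% lower among all genes tested. In the opposite direction, 43 of the 325 genes lower at 18 h were higher at 8 h, as were 7.45% of all genes tested. Of the 520 genes higher at 18 h 14 were lower at 8 h, as were 0.986% of all genes tested. The difference at 18 h minus that at 8 h was tested in the same fit, and 1383 genes passed (11.3%), 368 upwards (3%) and 1015 downwards (8.27%). Without the replicate block 121 genes passed (50 upwards and 71 downwards), and proximal and sham arrays of a letter did not deviate together at 8 h (correlations of -0.05, -0.18 and -0.30). Genes with a large upward change that were called without each 18 h pair included Reg3b, with a difference of 3.35 at 18 h and 0.29 at 8 h, and Tnfaip6, with 2.53 and -0.21. Il6 and Vip also passed upwards (adjusted p = 0.000315 and 5.28e-05), but their sham means at 18 h lay below the filter level, so no size is given for their changes. Sox11 had 2.39 at 18 h and 0.22 at 8 h. Atf3 had 3.89 at 18 h and 1.06 at 8 h, a change of 2.82 (adjusted p = 0.0195) that reached 0.0827 without a pair (a or b) and was lost without the block. Isl2 changed downwards by 1.38 on the log2 scale, to a difference of -0.95 at 18 h against 0.43 at 8 h, and was lost without the block.

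Some genes that differed at 18 h already did so at 8 h. Stat3 was higher by 0.47 at 18 h and by 0.41 at 8 h (adjusted p = 0.00891 at 8 h). Ccl2 was higher by 1.48 at 18 h and by 1.16 at 8 h (adjusted p = 0.0174 at 8 h), Gadd45g by 1.64 and 0.99, Ppp1r15a by 0.58 and 0.67 and Tnfrsf1a by 0.55 and 0.76. Crem was higher by 1.59 at 18 h and lower at 8 h (-0.74, adjusted p = 0.0157).

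Calls were also shared with the later hours. At 24 h 424 genes were called (3.45%), of which 289 genes were higher (2.35%) and 135 lower (1.1%), and at 28 h 1065 were called (8.68%), of which 599 were higher (4.88%) and 466 lower (3.8%). Of the genes higher at 18 h, 182 were also higher at 24 h (35% of the 18 h list and 63% of the 24 h list) and 219 at 28 h (42.1% and 36.6%). Of the genes lower at 18 h, 63 were also lower at 24 h (19.4% and 46.7%) and 108 at 28 h (33.2% and 23.2%). All 3 hours shared 166 higher and 59 lower genes. Sox11 had differences of 2.39, 2.33 and 2.34 at 18, 24 and 28 h, Adcyap1 of 1.58, 1.81 and 1.95, and Racgap1 of -1.13, -1.23 and -1.60. Galanin (0.81, 1.22 and 1.40), Csrp3 (1.22, 1.67 and 2.61), Timp1 (0.76, 1.18 and 2.05) and Gfap (1.62, 1.82 and 2.96) had larger differences at the later hours. Their change from 18 h to the mean of the later hours did not pass the test in Gal (adjusted p = 0.0997), Csrp3 (0.184), Timp1 (0.0841) or Gfap (0.174).

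The difference at 18 h minus the mean of those at 24 and 28 h passed the test in 9 genes (0.0733%), 1 upwards (0.00815%) and 8 downwards (0.0652%). Tlcd5, for a transmembrane lipid-sensing domain protein, changed upwards by 0.85, with differences of 0.68, -0.27 and -0.06 at 18, 24 and 28 h. Klf9 changed by -2.62, with differences of -1.45, 1.22 and 1.13, and Sgk1 by -1.01, with -0.56, 0.18 and 0.71. Ythdf2, a reader of methylated RNA (-1.61), Casr (-1.57), Cybb, a subunit of the phagocyte oxidase (-1.45), Ptges, a prostaglandin synthase (-0.94), Slc7a6os (-0.84) and Cldn5 (-0.63) were the others. Ptges did not differ past the threshold at 18 h (-0.01, adjusted p = 0.965) and was higher by 1.34 at 28 h. With letter a of 18 h left out 0 of these 9 passed and 0 of all genes (1138 at an unadjusted p under 0.05), with letter b left out 12 genes passed and with letter c left out 55, and without the replicate block 0 (409 at an unadjusted p under 0.05).

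**Figure D4:**
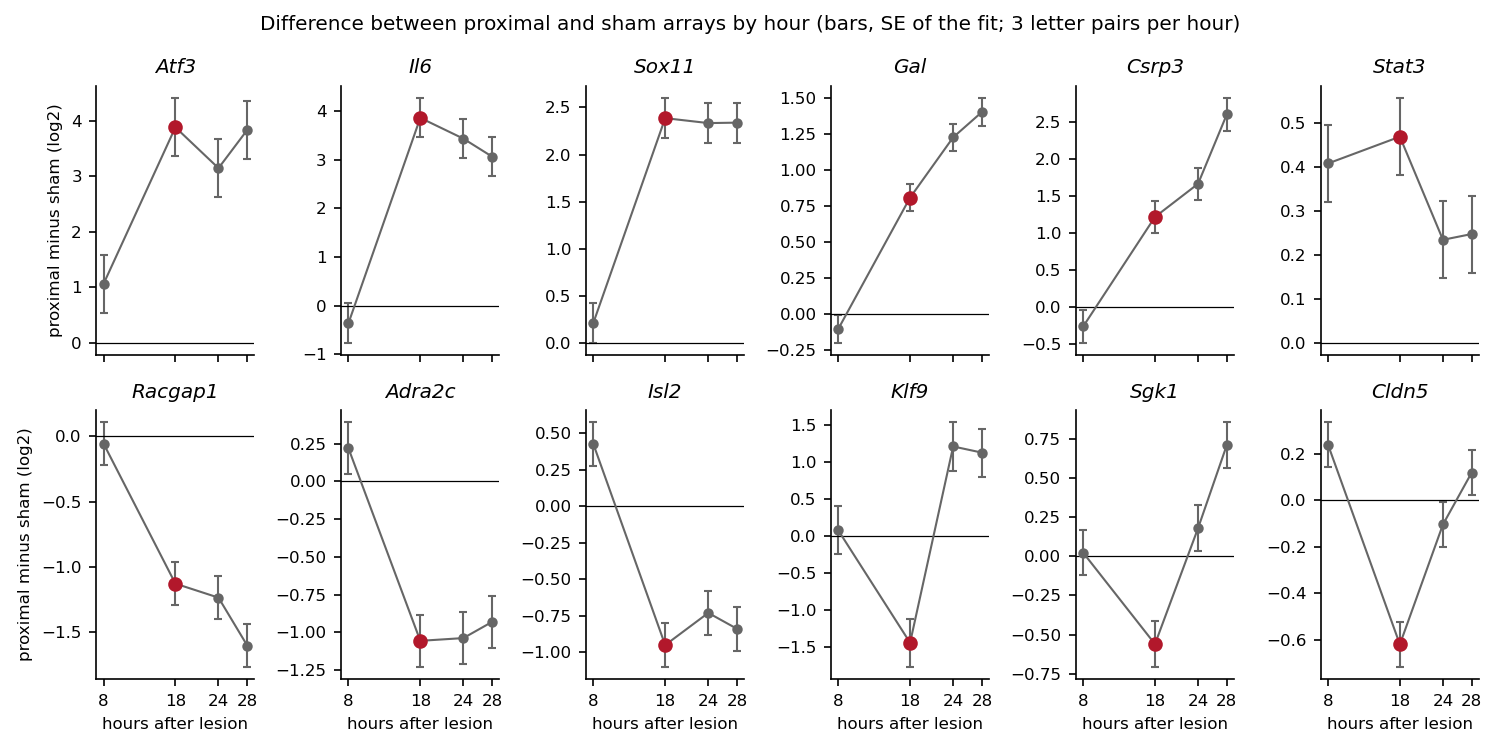
Difference between proximal and sham arrays (log2, vertical axes, each panel with its own range) of 12 genes at 8, 18, 24 and 28 h, with 18 h in red and bars for the SE of the fit (3 letter pairs per hour). Sox11 stays between 2.33 and 2.39 from 18 to 28 h, Gal and Csrp3 lie higher at each later hour, and Klf9, Sgk1 and Cldn5 lie below 0 at 18 h and above 0 at 28 h.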

How the data were processed

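Values were taken as the authors deposited them, as log2 intensities per probe set made with RMA, per the submitters' processing notes (its version is not stated there), and no column was left out. Of 31099 probe sets, 57 controls were dropped, 20826 had 1 gene symbol in the platform annotation, 436 several and 9780 none, and 20758 matched RefSeq. Where a gene had several probe sets, the brightest on average over the 72 arrays stood for it (14217 genes). Of these, 12276 were tested, with means of at least 5.46, the 25th percentile of probe set means. Tests used limma 3.58.1 in R 4.3.3. The fit took 43 proximal and sham arrays, with hour and letter together as a block and 1 lesion difference per hour (13 residual degrees of freedom, empirical Bayes with a trend, two-sided, Benjamini-Hochberg over all genes tested). SE is the moderated standard error. A left-out pair was removed at 18 h alone. A fold against a group mean below the filter level is given as at least the ratio of the other group's mean to that level.

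The pairing by title letter was checked by the correlation of deviations from group means, where each correlation had to exceed 0.1. This was met at 18 h (0.618, 0.714 and 0.799) and 1 h and at no other hour with 3 pairs. What the letters stand for is not stated in the labels. Tested on simulated data with the real arrays' means (12276 genes), the fit called 54% of genes changed by 0.5, 98% of those changed by 1 and 100% of those changed by 2 or 3 (50 genes each), and also called 15 unchanged genes. The simulated noise was normal, independent between arrays and, for a given gene, of the same spread in every array. The unequal resemblance of the real letter pairs was not simulated, so these shares describe that setting alone.

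The comparison, the gene lists and the genes named were chosen with earlier results of these data known. Genes were named as the 15 largest rises and falls, up to 4 members of each list by p, the 8 largest changes each way against other hours, and a fixed set of injury genes. Called list members beyond this were named with the counts. Values of JAK-STAT receptors not taken by the rule were added to complete that pathway. Promoters came from RefSeq (GRCr8) and were matched by symbol. The number of arrays limits the precision.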

Additional observations from a re-analysis of the deposited data

Results flagged for a closer look

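The differences between hours named here passed limma's test of the change itself, and the values are changes in the log2 difference between proximal and sham ganglia. Against 8 h, changes upwards included those of RT1-T24-4 (3.57), Reg3b (3.05), Atf3 (2.82), Tnfaip6 (2.74), Cxcl13, a chemokine gene for B cells (2.73) and Fabp7, a glial fatty acid binding protein gene (2.49). The fitted changes of Il6 (4.23) and Vip (2.64) rest on sham means below the filter level and have no rank or size among these. Fabp7 was lower at 8 h (-1.82, adjusted p = 0.00132) and not called at 18 h (0.67, adjusted p = 0.152), where sham c, at 9.10, lay below all other arrays (11.08 to 11.37). Cxcl13 had 8.21, 10.31 and 7.96 in proximal arrays of 18 h and 7.23, 6.88 and 8.13 in sham arrays, and its difference at 18 h (1.41, adjusted p = 0.0217) reached 0.422 without a pair (a or b).

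The largest changes downwards against 8 h were those of Cpeb3 (-2.03), Cadm1 (-1.91), the kinase gene Camk2a (-1.90), Pacsin1 (-1.77), Rflnb (-1.55), Casr (-1.54), Klf9 (-1.52) and Isl2 (-1.38). Without letter a Cpeb3 and Cadm1 were lost, without letter a or b Atf3, RT1-T24-4 and Rflnb, and without any 1 letter Pacsin1 and Klf9, with adjusted p up to 0.0850, 0.0891, 0.0827, 0.0569, 0.257, 0.174 and 0.165. Camk2a was lower at 18 h (-0.88, adjusted p = 0.0381, and up to 0.184 without a pair) and higher at 8 h (1.02, adjusted p = 0.0174). Other Camk2a probe sets above the filter level did not follow at 18 h (0.026 and 0.045).

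Against the mean of 24 and 28 h, Tlcd5 changed by 0.847, Klf9 by -2.62, Ythdf2 by -1.61, Casr by -1.57, Cybb by -1.45, Sgk1 by -1.01, Ptges by -0.944, Slc7a6os by -0.843 and Cldn5 by -0.629. None of these 9 changes passed with letter a of 18 h left out, where adjusted p ran from 0.0657 for Tlcd5 to 0.279 for Cybb.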

How the results depend on the processing

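For the comparison at 18 h 16 alternatives were run. Against 845 genes called, 125 were called without the replicate block on the same 43 arrays (113 higher and 12 lower), 185 over all 72 arrays without it (150 and 35), 359 with only the 6 arrays of 18 h and the block (275 and 84, of which 326 were among the 845) and 3 with those 6 arrays and no block (487 at an unadjusted p under 0.05). A fit of the 1 h and 18 h arrays alone, where letters pair at both hours, chosen after seeing the data, called 535 (341 and 194). Leaving out 1 letter pair gave 234 to 636. Scaling each array to the same interquartile range gave 488 (278 and 210). Array weights gave 2955 (1628 and 1327, 55.1% higher against 61.5% in the main fit), and another quantile normalization gave 894 (468 and 426, 52.3% higher). No filter, a stricter one, robust moderation, no variance trend and every probe set gave 772 to 852. The change from 8 h, 1383 genes, fell to 121 without the replicate block, 725 after scaling to the same interquartile range and 699 to 1043 with a letter pair left out. Its share of upward calls was 26.6%, against 39.5% after another quantile normalization (449 and 689) and 37.8% after scaling (274 and 451). The change to the later hours, 9 genes, became 0 without the replicate block, 5 after that scaling, 4 with robust moderation and 0 to 55 with a letter pair left out. For single named genes, 2542 of 3229 values kept their status as called or not called, 622 lost a call and 65 gained one. Among those called in either fit 0 changed direction. Direction was not compared where neither fit called the gene. Of 121 called genes 2, Sox11 and Gadd45a, were called in every alternative for 18 h in which they were scored. Sox11 was scored in 14 alternatives and Gadd45a in 15. The fit of every probe set was not scored by gene.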

Other observations

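The lower genes whose calls held without each letter pair in turn numbered 33, and apart from those described they included the following, named after their values were seen. Bcl11b, a zinc finger transcription factor of neurons, differed by -0.79, Negr1, a neuronal adhesion protein gene, by -0.72, and Ddit4l by -0.93. Ddit4l had 7.26, 7.22 and 6.63 in proximal arrays and 8.20, 8.26 and 7.44 in sham arrays. Among higher genes that held, Pvr, a nectin-like adhesion receptor gene, had 9.11, 9.07 and 8.71 in proximal arrays and 7.02, 6.95 and 6.97 in sham arrays. Arg1, for the arginase that injured neurons and some macrophages make, had 7.75, 7.99 and 6.74 in proximal arrays and 5.70, 5.99 and 5.77 in sham arrays.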
